A study of Mus musculus with 135 samples.

Results

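The neuronal immediate early genes described here were Fos, Fosb, Junb, Egr1, Egr2, Egr4, Arc, Npas4, Nr4a1 and Ier2. They were chosen by symbol, and all 10 were found among the 55416 genes of both count tables. The libraries, 134 with a known group, were made from bulk RNA of male Townes mice, which carry human globin genes in place of their own, and hold cerebral cortex (68) or hippocampus (66). SS mice carry the sickle form of human beta-globin and AA mice the normal form. Some mice of each genotype were exposed to repeat social defeat (RSD), in which an aggressor male was put into the home cage on consecutive days, and some drank minocycline, an antibiotic given here for its effect on neuroinflammation, over the days of the RSD. All groups were tested for behavior, with fear conditioning among the tests, before their brains were taken, so no group shows these genes in mice left undisturbed. The tests followed the last RSD session, and the brains were taken a day or more after the tests had ended. The cortex libraries used came from 12 AA, 1 AA + minocycline, 3 AA + RSD, 18 AA + RSD + minocycline, 8 SS, 4 SS + minocycline, 6 SS + RSD and 14 SS + RSD + minocycline mice, and the hippocampus libraries from 11 AA mice, 7 SS mice and the same numbers in the other groups.

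Immediate early genes are switched on within minutes of a stimulus by transcription factors that are already in the cell, without new protein being made. In neurons the stimulus is synaptic activity, which opens NMDA receptors and voltage-gated calcium channels and acts through the kinases CaMK and MAPK on the factors CREB, SRF and MEF2. Most of the products are transcription factors themselves: Fos, Fosb and Junb build the AP-1 dimer, Egr1, Egr2 and Egr4 are zinc finger factors, Npas4 is a factor that answers to calcium in neurons, and Nr4a1 is an orphan nuclear receptor. Ier2 is a nuclear protein of the same early response, and Arc acts at synapses, where it helps to remove AMPA receptors. Their messengers are short-lived, so a level in tissue reflects the recent past of the animal. In these mice that past lay after the RSD and the behavioral tests.

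The members lie apart in the genome (GRCm39, the build of the files, with positions from GENCODE). Fos is at chr12:85520658-85524047 on the plus strand, Fosb at chr7:19036621-19043976 and Npas4 at chr19:5034382-5040344 on the minus strand. Arc (chr15:74540932-74544419, minus strand) and Nr4a1 (chr15:101151980-101172681, plus strand) share a chromosome. Counts were taken over whole genes, so they do not tell isoforms apart.

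To show what the genes share in sequence, promoters were taken from RefSeq (GRCm38.p6), from 250 bases before to 50 bases after a start site. Windows of 7 of the 10 members were used, without Egr1, Arc and Ier2. The letters TGACG, the core of the cAMP response element (CRE) that CREB binds, were searched on both strands. They stood in at least 1 window of 7 of the 7 members, against 20.8% of 32851 promoter windows. Members were counted as genes, Egr2 with several windows, and the background as single windows, so these shares are not like for like. The whole element TGACGTCA, which contains the core, was in 0 of the 7 members and in 1.79% of windows, and the CArG box, named for the letters that SRF binds, was in Egr2 and in 1.63% of windows. These are matches of letters only. The windows of the 5 members that the results below turn on most are shown 5′ to 3′, with the core and its reverse complement in capitals.
Fos, chr12:85473640-85473939, plus strand: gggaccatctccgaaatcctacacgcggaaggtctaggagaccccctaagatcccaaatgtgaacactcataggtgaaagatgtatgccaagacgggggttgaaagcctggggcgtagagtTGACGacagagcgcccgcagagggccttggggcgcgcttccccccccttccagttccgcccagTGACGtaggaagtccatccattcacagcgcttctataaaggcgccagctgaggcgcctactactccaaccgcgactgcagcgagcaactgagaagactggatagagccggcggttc
Fosb, chr7:19309996-19310295, minus strand: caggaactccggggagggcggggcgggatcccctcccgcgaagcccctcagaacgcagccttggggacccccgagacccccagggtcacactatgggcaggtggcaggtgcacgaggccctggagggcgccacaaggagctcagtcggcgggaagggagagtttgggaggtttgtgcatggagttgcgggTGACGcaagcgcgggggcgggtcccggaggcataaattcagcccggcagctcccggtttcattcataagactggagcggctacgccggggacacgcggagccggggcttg
Junb, chr8:84978699-84978998, minus strand: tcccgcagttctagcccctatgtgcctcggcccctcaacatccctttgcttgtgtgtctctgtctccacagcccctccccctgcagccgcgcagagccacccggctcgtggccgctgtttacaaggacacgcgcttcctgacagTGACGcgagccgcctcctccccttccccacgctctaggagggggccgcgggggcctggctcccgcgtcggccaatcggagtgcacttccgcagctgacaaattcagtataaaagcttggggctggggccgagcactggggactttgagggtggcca
Npas4, chr19:4989922-4990221, minus strand: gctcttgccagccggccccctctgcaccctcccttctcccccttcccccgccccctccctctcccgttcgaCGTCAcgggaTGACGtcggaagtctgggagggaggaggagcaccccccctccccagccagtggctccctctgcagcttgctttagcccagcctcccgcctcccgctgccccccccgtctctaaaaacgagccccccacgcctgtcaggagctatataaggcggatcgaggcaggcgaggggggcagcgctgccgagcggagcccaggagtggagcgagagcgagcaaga
Nr4a1, chr15:101266596-101266895, plus strand: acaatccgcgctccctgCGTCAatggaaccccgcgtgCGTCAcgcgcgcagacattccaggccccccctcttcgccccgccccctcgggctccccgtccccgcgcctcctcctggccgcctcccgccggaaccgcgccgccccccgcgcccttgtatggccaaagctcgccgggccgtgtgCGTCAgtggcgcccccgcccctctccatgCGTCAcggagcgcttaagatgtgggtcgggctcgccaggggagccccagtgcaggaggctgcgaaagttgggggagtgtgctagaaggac
In Fos the core stood 129 and 66 bases before the start site, in Fosb 60 bases and in Junb 106 bases before it. Npas4 held it on both strands, 179 and 169 bases before the start site, and Nr4a1 held 4 copies on the minus strand.

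Cortex libraries held between 16295042 and 107713193 reads assigned to genes, hippocampus libraries between 12869149 and 68731008, and the lowest count of any member in any library was 6, for Egr2. Some libraries stood apart. Mice 9887 (SS + minocycline) and 9877 (AA + RSD + minocycline) held identical counts in each tissue, so both were left out. The libraries of mouse 9674 (AA + RSD) went against their tissue labels: Dsp, a marker of dentate granule cells, was at 62.1 CPM (counts per 1000000 reads) in the library labelled cortex, where all others had at most 2.47, and at 0.123 CPM in the library labelled hippocampus, where all others had at least 23.1. They were kept under their labels, and values without them stand beside the results of the AA + RSD group. Mice 5844, 5853, 7078 and 9631 stood apart in the red blood cell gene Alas2 or in the mouse globin gene Hbb-bs. In the cortex the summed level of red blood cell markers reached 109 CPM in AA mice (median 4.79 CPM), against 58 to 138 CPM in SS mice. It fell to 6.92 CPM in SS + RSD + minocycline mice (median 79.3 CPM). Whether the genotype labels hold for such mice was not tested. Mice also fell into number series by the numbers in their titles: all RSD mice without minocycline were of series A, all mice with minocycline of series B or C, and control mice of A and B. Exposure to RSD and treatment can thus not be told apart from the series where groups of different series were compared. Between control mice of series A and B, 42.8% of genes differed in the cortex and 44.3% in the hippocampus, with genotype as a term. Libraries are single mice, and a bulk level cannot tell fewer cells of a type from less RNA per cell.

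In control mice the immediate early genes were expressed at higher levels in the cortex than in the hippocampus. In AA mice 8 of the 10 members were lower in the hippocampus by edgeR's quasi-likelihood test (Benjamini-Hochberg adjusted p under 0.05 over all genes, which is meant by "called" below), and in SS mice 9 of 10. Over all genes tested, 17.5% were called lower in AA mice and 14.7% in SS mice (37.1% and 29.4% in either direction). The median log2 fold change of the members was -1.1 in AA and -1.36 in SS mice, against 0.02 for all genes in each. Marker levels differed between the tissues too. The summed level of neuronal markers was 6210 to 7790 CPM in the cortex and 4820 to 5950 CPM in the hippocampus of AA mice, and 6040 to 6820 and 4660 to 5350 CPM in SS mice. The median of choroid plexus markers was 16 and 154 CPM in AA mice. Their part in the difference was not tested. With the mouse as a block, 9 of 10 were called in AA mice (Egr4 in addition, log2 fold change -0.3, adjusted p = 0.00521 with edgeR) and 10 of 10 in SS mice (Junb in addition, -0.66, adjusted p = 0.00282 with edgeR).

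The difference was largest in estimate for Egr2, which drives myelination in Schwann cells and is induced by activity in neurons. In AA mice Egr2 ranged from 1.69 to 9.26 CPM in the cortex with a median of 5.29 CPM, and from 0.565 to 1.98 CPM in the hippocampus with a median of 1.07 CPM. The ranges met only at their ends. The log2 fold change was -2.05 ± 0.29 (SE) in AA mice (adjusted p = 1.98e-06, edgeR) and -2.86 ± 0.44 in SS mice (adjusted p = 6.97e-05, edgeR). Egr1, a factor used as a marker of plasticity, lay between 194 and 359 CPM in the AA cortex and between 61.3 and 114 CPM in the AA hippocampus, and the groups did not overlap in either genotype. Its log2 fold change was -1.6 ± 0.11 in AA mice (adjusted p = 1.39e-11, edgeR). Fosb too did not overlap, with 11.3 to 21.1 CPM in the AA cortex and 6.36 to 8.28 CPM in the AA hippocampus (log2 fold change -1.18 ± 0.09, adjusted p = 1.26e-10, edgeR).

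Fos differed by -1.66 ± 0.29 on the log2 scale in AA mice and by -2.1 ± 0.35 in SS mice, with median levels of 21 CPM in the AA cortex and 5.29 CPM in the AA hippocampus. Npas4 differed by -1.29 ± 0.2 and -1.37 ± 0.29, Ier2 by -1.03 ± 0.15 and -1.28 ± 0.26, Nr4a1 by -0.91 ± 0.17 and -1.35 ± 0.18, and Arc by -0.91 ± 0.23 and -1.5 ± 0.31. Egr4 was called in SS mice (-0.89 ± 0.2, adjusted p = 0.00248, edgeR) and had -0.31 ± 0.16 in AA mice (adjusted p = 0.139, edgeR). Junb, with -0.22 ± 0.18 and -0.72 ± 0.28, was called in neither (adjusted p = 0.386 and 0.0625, edgeR). Whether the difference between tissues itself differed between genotypes was not tested.

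**Figure D1:**
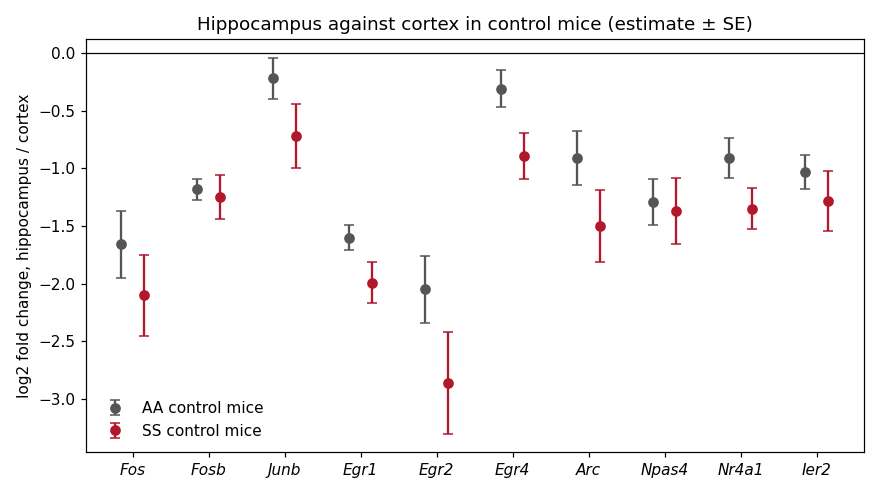
Log2 fold change of the hippocampus over the cortex (y axis) for each member (x axis), in AA control mice (11 hippocampus and 12 cortex libraries) and SS control mice (7 and 8). Points are edgeR estimates and bars their standard errors. All 20 estimates lie below 0, and Egr2 is the lowest in both genotypes.

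Other genes of the pathway did not share one direction. Of 17 other early transcription factors tested in AA mice, 4 were called higher and 6 lower in the hippocampus. Nr4a3, the relative of Nr4a1, was higher (1.63 ± 0.09 on the log2 scale, adjusted p = 2.52e-13), as was Jun, the AP-1 partner (1.5 ± 0.09, adjusted p = 6.49e-13), while Egr3 was lower (-1.16 ± 0.1, adjusted p = 8.20e-10), all with edgeR. Of 20 activity-regulated effector genes 6 were higher and 10 lower, among them Trib1 (-1.07 ± 0.09) and Homer1 (-1.12 ± 0.1), a scaffold of the synapse. Of 18 upstream signalling genes 11 were higher, among them Grin2a (0.63 ± 0.07), and 2 lower, among them Mef2c (-2.24 ± 0.12). Of all 17665 genes tested 3470 were called higher and 3089 lower.

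Levels between genes were compared per kilobase of exon, in control mice. The length was that of the exons of all annotated transcripts together, 10903 bases for Nr4a1 and 6243 for Fosb. For some members, Nr4a1 among them, the gene version differed from that of the files. The order of the genes rests on these lengths. In the AA cortex Egr1 and Arc led, with median levels of 59.6 and 51.3 CPM per kilobase, and their ranges overlapped (43.1 to 79.8 and 19.6 to 106). Junb followed with 17.7, then Nr4a1 with 9.63, Fos with 8.91, Ier2 with 5.58, Npas4 with 5.22, Egr4 with 3.51, Fosb with 2.76 and Egr2 with 1.55 CPM per kilobase. Each range overlapped that of its neighbour in this order. In the AA hippocampus Arc stood before Egr1 (24.7 and 18.2 CPM per kilobase), and Egr2 was again last with 0.314. Other genes on the opposite strand overlapped 21.6% of the exonic bases of Egr4 (Gm67895), 13.4% of those of Junb (Gm65321 and Prdx2) and 6.02% of those of Nr4a1 (Gm63180). The strand setting of the counting is not given in the sources used here, so reads of these neighbours cannot be told apart there.

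**Figure D2:**
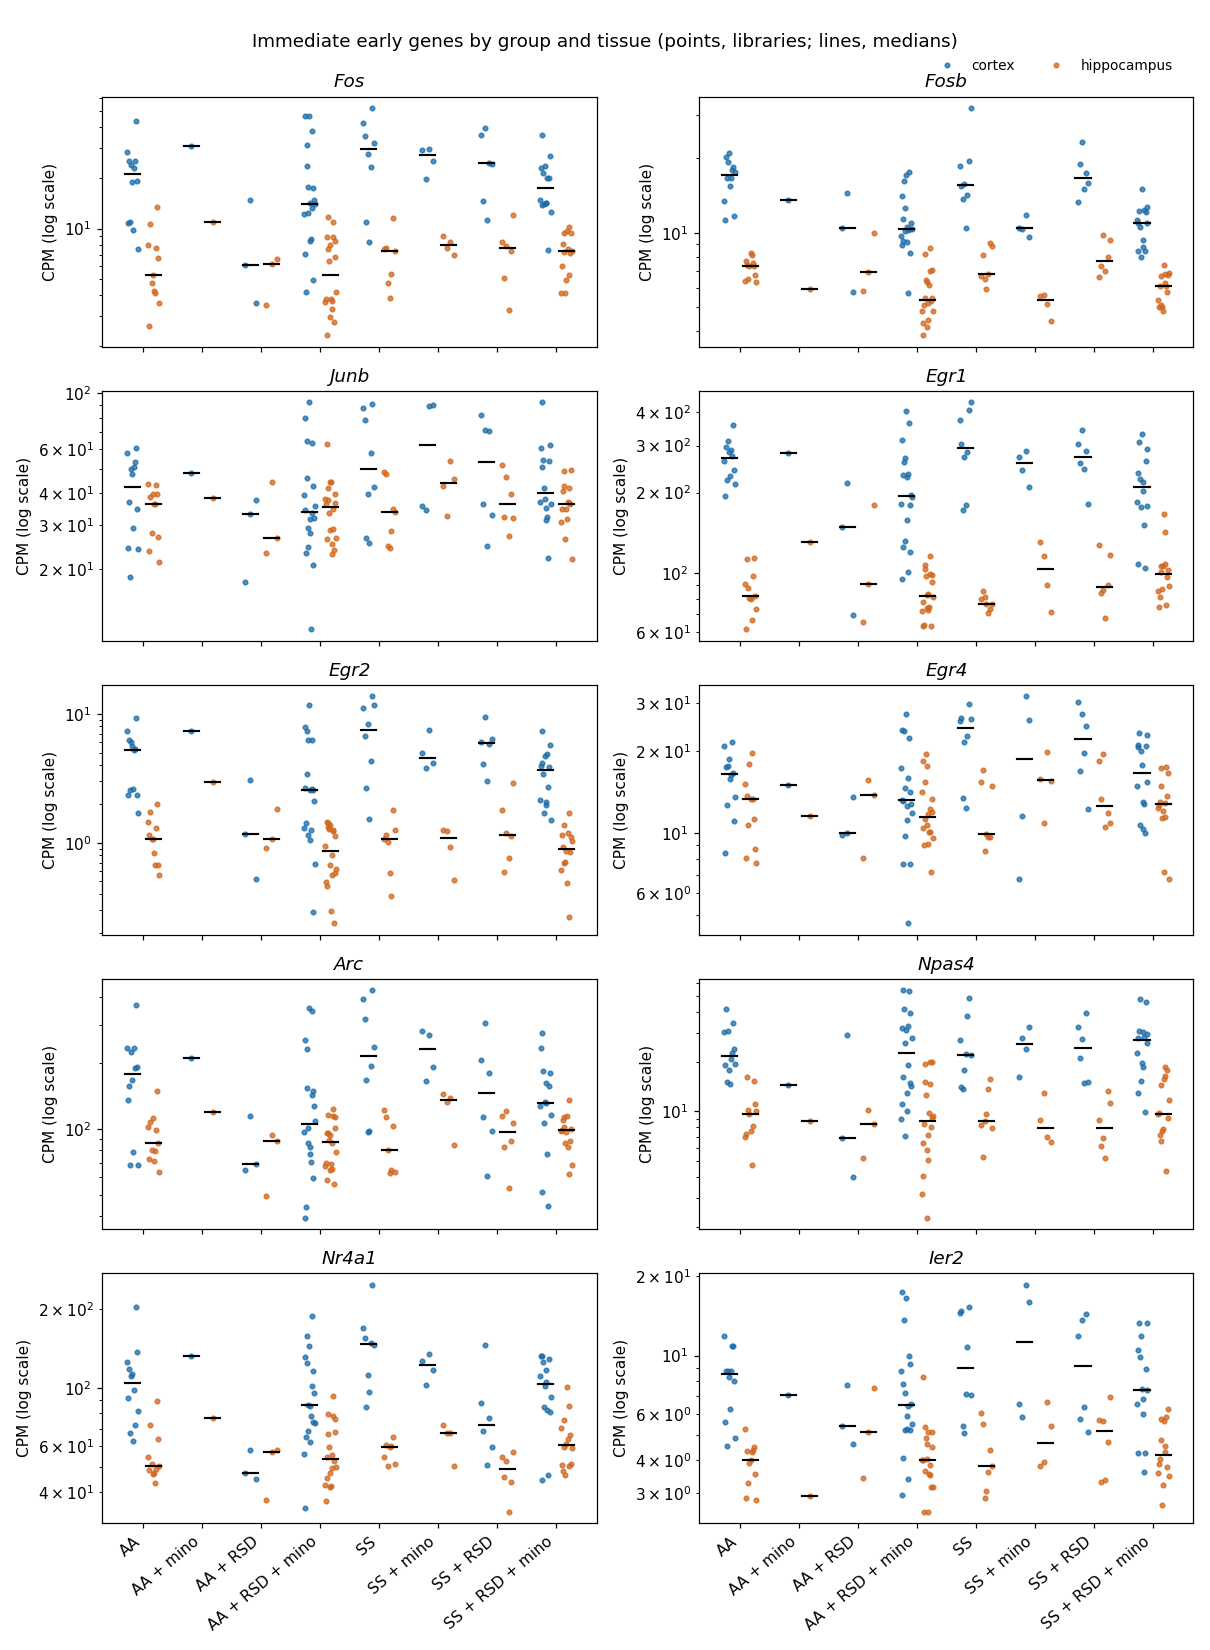
CPM (y axis, log scale) of each member in every library used, by group (x axis; mino, minocycline), with cortex and hippocampus side by side. Lines are medians. Hippocampus levels lie below cortex levels for most members and groups, while the groups of a tissue overlap widely.

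RSD mice were compared with control mice of the same genotype, in brains taken after the behavioral tests. By edgeR 0 of 10 members were called in SS + RSD against SS mice in the cortex (1 at an unadjusted p under 0.05, 1 called by DESeq2), where 2.57% of all genes were called, and 0 of 10 in the hippocampus (1 at an unadjusted p under 0.05, 0 by DESeq2), with 3.11% of genes. Nr4a1 had the lowest adjusted p of the cortex. In the cortex of 8 SS mice it ranged from 84.7 to 248 CPM with a median of 147 CPM, and in 6 SS + RSD mice from 50.9 to 146 CPM with a median of 72.5 CPM. The SS + RSD mice were at 50.9, 59.8, 68.5, 76.5, 87.9 and 146 CPM, so 4 of them lay below every SS mouse. Its log2 fold change was -0.79 ± 0.25 (p = 0.00313, adjusted p = 0.0639, edgeR) and it was called with DESeq2 (adjusted p = 0.0164), with RLE size factors (0.0491) and in a fit of only both groups (0.0318). Without SS + RSD mouse 5400, which had 146 CPM, it was called as well (-1.08, adjusted p = 0.0377, edgeR). Within series A alone, which holds 2 SS mice, the estimate was -1 (adjusted p = 1, edgeR). In the hippocampus Nr4a1 had -0.22 ± 0.14 (adjusted p = 0.412, edgeR).

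The other members of the SS cortex had log2 fold changes after RSD from -0.56 (Arc) to 0.02 (Fosb), and in the hippocampus the 10 members ranged from -0.22 (Nr4a1) to 0.45 (Egr2). Within series A alone, which leaves 2 SS mice, the cortex estimates were lower: they ran from -1.16 (Arc, unadjusted p = 0.0389, adjusted p = 1, edgeR) to 0.28 (Npas4) with a median of -0.63, and those of the hippocampus from -0.29 (Junb) to 0.39 (Npas4) with a median of -0.08. Markers of other cells differed between the cortex groups as well. The summed level of astrocyte markers was 746 to 1010 CPM in SS and 986 to 1460 CPM in SS + RSD mice, that of microglial markers 153 to 232 and 202 to 279 CPM, that of oligodendrocyte markers 3050 to 5780 and 3380 to 6230 CPM, and that of neuronal markers 6040 to 6820 and 5350 to 7540 CPM. Their part in these values was not tested. None of the genes of the 3 other lists (17 early transcription factors, 20 effector genes and 18 upstream genes tested) was called in SS + RSD against SS mice in either tissue by edgeR.

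In AA + RSD mice all 10 members had lower estimates than in AA mice in the cortex, with a median log2 fold change of -0.86. By edgeR 0 of 10 were called (5 at an unadjusted p under 0.05, 0 by DESeq2), where 0.853% of genes were called. All AA + RSD mice were of series A. Within series A alone, with 4 AA mice and mouse 9674 kept, Fos was at -1.17 and Arc at -1.04. Their unadjusted p were 0.0393 and 0.022, and the adjusted p was 0.996 for each (edgeR). Nr4a1 was at 47.3, 58.2 and 44.9 CPM in the AA + RSD mice 9643, 9646 and 9674 and between 62.8 and 203 CPM in the 12 AA mice. The groups did not overlap, and the log2 fold change was -1.09 ± 0.36 (adjusted p = 0.181, edgeR). Fos was at 3.6 CPM in the cortex library of mouse 9674, whose markers go against its label, and its estimate moved from -1.34 to -0.98 without that mouse. Without it the 10 estimates ranged from -1.16 (Egr2) to -0.31 (Ier2), with Nr4a1 at -1.01 (adjusted p = 0.822, edgeR), and 0 genes of any kind were called. Mouse 9646 moved Fos as well, to -2.08 without it (adjusted p = 0.198, edgeR), where Npas4 was at -2.13 and Fosb at -1.03 (adjusted p = 0.0952 and 0.0707, edgeR). In the hippocampus the members ranged from -0.29 (Npas4) to 0.46 (Ier2), with 0 of 10 called (0 at an unadjusted p under 0.05, 0 by DESeq2) and 1.19% of genes called. Without mouse 9674 they ranged from -0.43 (Fos) to 0.13 (Ier2), and Egr1 moved from 0.39 to -0.13. Markers of choroid plexus stood apart in the cortex library of mouse 9674 only: their summed level was 5420 CPM there, 11.5 and 24.9 CPM in the other AA + RSD mice and 7.68 to 37.7 CPM in AA mice.

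Fosb was the 1 member called between groups that differ in treatment. In the cortex of SS + RSD + minocycline mice it was lower than in SS + RSD mice, with 7.98 to 15 CPM and a median of 11 CPM in 14 mice against 13.3, 15, 15.9, 17.5, 19 and 23.3 CPM in 6 mice. Only the ends of the ranges overlapped. The log2 fold change was -0.71 ± 0.15 (adjusted p = 0.00986, edgeR). In the hippocampus the levels were 4.82 to 7.43 CPM against 6.65 to 9.77 CPM, and the log2 fold change was -0.43 ± 0.11 (adjusted p = 0.026, edgeR). Fosb was the 1 member of 10 called in each tissue, where 8.85% of all genes were called in the cortex (2.47% lower) and 5.96% in the hippocampus (1.08% lower), so a single call among 10 genes is near that background. The comparison sets series B and C against series A. When the model held the number series too, the estimates stayed at -0.72 and -0.4 but were not called (adjusted p = 1 and 0.409, edgeR), and with the share of reads outside genes as a term they were -0.79 and -0.44 (adjusted p = 0.095 and 0.547, edgeR). In the hippocampus the call was also lost without the SS + RSD mice 5354, 5391, 9615, 9616 or 9621 (adjusted p = 0.059, 0.0517, 0.0571, 0.0592 and 0.0524, edgeR). Markers of other cells moved with the same comparison. The summed level of endothelial markers was 127 to 201 CPM in SS + RSD + minocycline and 184 to 244 CPM in SS + RSD cortex libraries, with Pecam1 and Cdh5 called lower. That of astrocyte markers was 554 to 1420 and 986 to 1460 CPM, with Aldh1l1 and Gja1 called lower, and that of microglial markers 156 to 276 and 202 to 279 CPM, with Tmem119 called lower. That of neuronal markers was 4560 to 7510 CPM (median 6090) and 5350 to 7540 CPM (median 6740). Their part in the Fosb values was not tested.

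Fosb estimates against control mice were negative in 3 minocycline groups as well, but were not called by edgeR, and comparisons within a genotype share their controls. In the cortex the 4 SS + minocycline mice had 9.59, 10.4, 10.5 and 11.8 CPM, while the 8 SS mice ranged from 10.5 to 32 CPM with a median of 15.6 CPM. In the hippocampus they had 4.41, 5.17, 5.56 and 5.61 CPM, below all 7 SS mice (5.95 to 9.1 CPM). The log2 fold changes were -0.72 ± 0.2 and -0.48 ± 0.14 (unadjusted p = 0.00141 and 0.00163, adjusted p = 0.666 and 0.981, edgeR). For SS + RSD + minocycline against SS mice they were -0.69 ± 0.14 in the cortex (adjusted p = 0.146, edgeR) and -0.29 ± 0.1 in the hippocampus (adjusted p = 0.999, edgeR). For AA + RSD + minocycline against AA mice they were -0.57 ± 0.14 (adjusted p = 0.127, edgeR) and -0.34 ± 0.11 (adjusted p = 1, edgeR). DESeq2 called Fosb in the cortex in both of these last comparisons (adjusted p = 0.0115 for SS and 0.0274 for AA mice). Within series B alone the cortex estimates were -0.73 in SS and -0.5 in AA mice (adjusted p = 0.667 and 0.289, edgeR). The 1 AA + minocycline mouse had 13.6 CPM in the cortex, inside the range of AA mice (11.3 to 21.1 CPM), and 5.92 CPM in the hippocampus. After RSD without minocycline the cortex estimate for Fosb was 0.02 ± 0.17 in SS mice (adjusted p = 0.944, edgeR). In AA + RSD mice it was -0.7 ± 0.25 (adjusted p = 0.226, edgeR), with 5.77, 10.5 and 14.5 CPM in the 3 mice, and -0.41 without mouse 9674 (adjusted p = 0.822, edgeR). The median of these 3 mice, 10.5 CPM, was close to that of AA + RSD + minocycline mice, 10.4 CPM, while AA mice had 17.2 CPM.

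**Figure D3:**
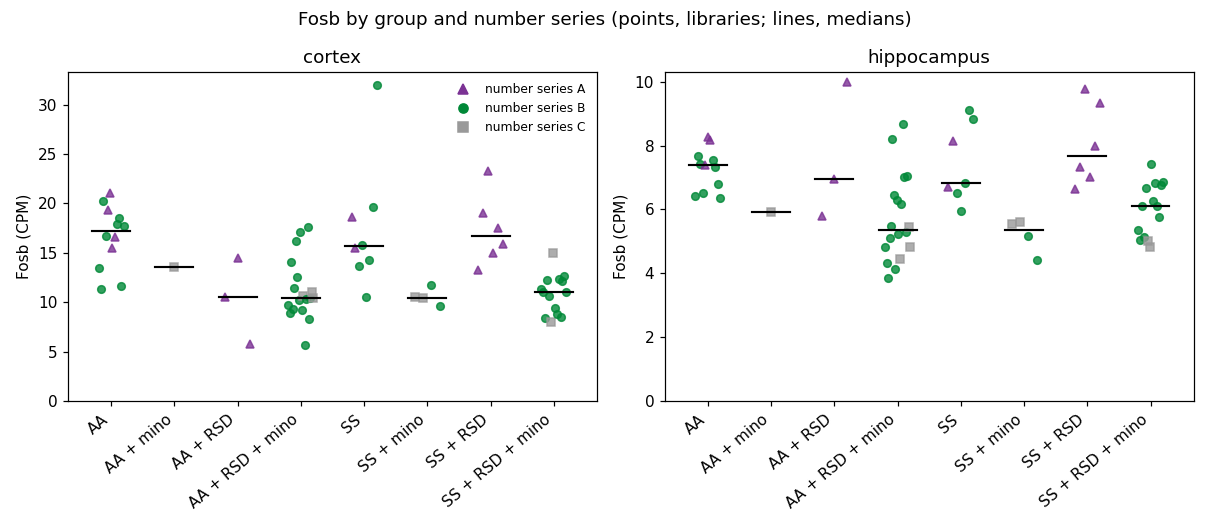
Fosb in CPM (y axis, from 0) in every library used, by group (x axis; mino, minocycline), for the cortex (left) and the hippocampus (right). Symbols and colors show the number series and lines are medians. The SS + minocycline libraries lie at 9.59 to 11.8 CPM in the cortex and 4.41 to 5.61 CPM in the hippocampus, at the lower end of the SS control libraries or below them.

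The other members were not called in any comparison with minocycline by edgeR. In SS + minocycline against SS mice 0 of 10 members were called in each tissue (1 at an unadjusted p under 0.05 in the cortex and 3 in the hippocampus, 0 by DESeq2), and 0% of genes were called. In SS + RSD + minocycline against SS mice 0 of 10 were called (6 at an unadjusted p under 0.05 in the cortex and 2 in the hippocampus; 1 and 0 by DESeq2), again with 0% of genes. Of the 10 estimates 9 were negative in the cortex, with a median of -0.53 against 0.04 for all genes, and 2 in the hippocampus, with a median of 0.1. Egr2 had the lowest estimate, -1.06 ± 0.31 (unadjusted p = 0.00168, adjusted p = 0.778, edgeR), with a median of 3.64 CPM in 14 SS + RSD + minocycline and 7.53 CPM in 8 SS mice. In SS + RSD + minocycline against SS + minocycline mice 0 of 10 members and 0% of genes were called in each tissue (0 and 1 at an unadjusted p under 0.05, 0 by DESeq2). Within series B alone 2 were called in the cortex, Egr4 (-0.88, adjusted p = 0.0455, edgeR) and Ier2 (-1.19, adjusted p = 0.033, edgeR). That fit set 12 mice against 2 and called 23% of all genes, so 2 of 10 members is near its background.

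In AA + RSD + minocycline against AA mice 0 of 10 members were called (1 at an unadjusted p under 0.05 in each tissue; 1 in the cortex and 0 in the hippocampus by DESeq2), with 0.0319% of genes called in the cortex and 0% in the hippocampus. Against AA + RSD mice 0 of 10 were called (1 in the cortex and 2 in the hippocampus at an unadjusted p under 0.05; 1 and 0 by DESeq2), with 3.6% and 2.67% of genes. All 10 cortex estimates were positive there, from 0.13 (Fosb) to 1.2 (Fos). The member that DESeq2 called was Nr4a1 (0.92, adjusted p = 0.0398). Without mouse 9674 the cortex estimates ranged from -0.16 (Fosb) to 0.86 (Nr4a1), with 0 of 10 called (edgeR). In the hippocampus the members then ranged from -0.16 (Fosb) to 0.4 (Npas4), with Egr1 at 0.11 in place of -0.42, and 0 of 10 were called (edgeR).

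Genes of the other pathway lists were also called in comparisons with minocycline. In SS + RSD + minocycline against SS + RSD mice in the cortex, 2 of 17 early transcription factors were lower, Egr3 (-0.91 ± 0.17 on the log2 scale, adjusted p = 0.0077, edgeR) and Crem, a relative of CREB (-0.74 ± 0.16, adjusted p = 0.0103, edgeR). Of 20 effector genes 5 were lower, among them Nptx2, a secreted protein that gathers AMPA receptors (-0.98 ± 0.18, adjusted p = 0.0069, edgeR), Ptgs2, which makes prostaglandins (-0.65 ± 0.16, adjusted p = 0.0131, edgeR), and Homer1 (-0.82 ± 0.2, adjusted p = 0.015, edgeR). Of 18 upstream genes 0 were called, beside 2.47% of all genes called lower and 8.85% in either direction. None of these was called when the model held the number series, where 0 of all genes were, and Crem was then at -0.24. The median log2 fold change of the effector genes was -0.39 and that of all genes -0.05. In AA + RSD + minocycline against AA mice, where 7 genes in all were called in the cortex, 3 were from these lists: Egr3 (-0.87 ± 0.14, adjusted p = 0.00561, edgeR), Nptx2 (-0.74 ± 0.14) and Homer1 (-0.64 ± 0.12). With the number series as a term Egr3 (-0.76) and Homer1 (-0.64) were called (adjusted p = 0.00756 and 0.0124, edgeR) and Nptx2 was not (adjusted p = 0.0516, edgeR), and within series B alone Egr3 was called (-0.77, adjusted p = 0.022, edgeR). In the hippocampus of SS + RSD + minocycline against SS + RSD mice 1 effector gene (Inhba, -0.67 ± 0.16) and 1 upstream gene (Elk1, -0.36 ± 0.09) were lower. Maff, a small partner of AP-1 like factors, was higher in SS than in AA mice given RSD + minocycline, both in the cortex (0.74 ± 0.15, adjusted p = 0.00386, edgeR) and in the hippocampus (0.79 ± 0.18, adjusted p = 0.0073, edgeR), and the call held in both tissues when the model held the series and within series B alone. Fosl1 was called in the hippocampus (2.06 ± 0.61, adjusted p = 0.0498, edgeR), but not with the series as a term (adjusted p = 0.0528, edgeR). The calls of AA + RSD mice rested on mouse 9674. Against them AA + RSD + minocycline mice had lower Ptgs2 in the cortex (-0.75 ± 0.2, adjusted p = 0.0299, edgeR), and in the hippocampus lower Trib1 (-0.52 ± 0.12), Pcsk1 (-0.73 ± 0.19), Nptx2 (-0.77 ± 0.22) and Mef2c, an activity-regulated transcription factor (-1.24 ± 0.22). Mef2c was higher in AA + RSD than in AA mice (1.17 ± 0.24, adjusted p = 0.00736, edgeR). Without mouse 9674 none of these was called by edgeR.

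The comparison of genotypes gave no call among the members. In SS against AA control mice 0 of 10 members were called in the cortex (2 at an unadjusted p under 0.05, 0 by DESeq2) with 0.214% of genes, and 0 of 10 in the hippocampus (0 at an unadjusted p under 0.05, 0 by DESeq2) with 0.159% of genes. All 10 cortex estimates were positive, from 0.09 (Fosb and Npas4) to 0.69 (Egr2). Egr4 was at 12.3 to 29.8 CPM in SS mice, with a median of 24.3 CPM, and at 8.4 to 21.5 CPM in AA mice, with a median of 16.4 CPM (log2 fold change 0.51 ± 0.23, adjusted p = 0.745, edgeR). In the hippocampus the median over the members was 0.01. The estimates differed between the number series: within series A (2 SS and 4 AA mice) Fos was at 1.07 in the cortex and the median of the members at 0.83, while within series B (6 and 8 mice) Fos was at 0.26 and the median at 0.23. The hippocampus medians were 0.3 and -0.13, and 0 of 10 were called within each series (edgeR). The difference between the series was not tested. In SS + RSD against AA + RSD mice 0 of 10 were called (5 in the cortex and 0 in the hippocampus at an unadjusted p under 0.05, 0 by DESeq2), with 0.493% and 0.78% of genes. The cortex estimates were all positive, with a median of 0.87, and ranged from 0.43 (Fosb) to 1.43 (Egr2) without mouse 9674, when the hippocampus estimates lay between 0.01 (Nr4a1) and 0.6 (Fos) and 0 of 10 were called in each tissue (edgeR). In SS + RSD + minocycline against AA + RSD + minocycline mice 0 of 10 were called (0 in the cortex and 1 in the hippocampus at an unadjusted p under 0.05, 0 by DESeq2), with 0.624% and 2.74% of genes, and the cortex estimates lay between -0.06 and 0.18. Whether the effect of RSD or of RSD + minocycline differed between genotypes was asked with an interaction term. For the interaction with RSD 0 of 10 members were called (1 in the cortex, Fosb, and 0 in the hippocampus at an unadjusted p under 0.05, 0 by DESeq2), with 0.236% and 0.0474% of genes. Fosb had 0.64 ± 0.3 in the cortex (unadjusted p = 0.0397, adjusted p = 1, edgeR) and 0.39 without mouse 9674, when 0 of 10 were called in each tissue (edgeR). For the interaction with RSD + minocycline it was 0 of 10 as well (0 and 1 at an unadjusted p under 0.05, 0 by DESeq2), with 0% of genes in each tissue.

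In the hippocampus some members differed between the number series. In control mice of series A against series B, Egr4 was higher (0.62 ± 0.15 on the log2 scale, adjusted p = 0.0038, edgeR) and Npas4 lower (-0.61 ± 0.22, adjusted p = 0.0321, edgeR), where 23.6% of genes were called higher and 20.7% lower. In SS mice Egr4 was at 15.4 and 17 CPM in series A and between 8.6 and 14.9 CPM in series B. In AA mice the series overlapped, with 13.3 to 19.6 CPM in series A and 7.71 to 15.1 CPM in series B. Neither was called with the share of reads outside genes as a term (adjusted p = 0.248 and 0.419, edgeR). In the cortex 0 of 10 members were called (0 at an unadjusted p under 0.05, 0 by DESeq2).

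Mice within a group differed much, and more so in the cortex. The standard deviation of log2 CPM within groups was larger in the cortex than in the hippocampus for 10 of 10 members, while this was so for 62% of 15074 genes with a mean of at least 1 CPM (mouse 9674 was left out here). The median of the members was 0.65 in the cortex and 0.37 in the hippocampus, against 0.29 and 0.26 for all genes. In the cortex Egr2 varied most (0.98), then Fos and Arc (0.81 each), and in the hippocampus Npas4 (0.68) and Egr2 (0.67). Npas4 had 0.71 in the cortex, and Fosb varied least (0.34 and 0.24). Among 18 AA + RSD + minocycline mice, Fos ranged from 4.2 to 47 CPM in the cortex and Arc from 39.3 to 357 CPM. The summed level of markers of cortical neurons also varied within that group, from 299 to 798 CPM, with a median of 588 CPM. Its part in the spread was not tested, nor was that of the share of reads outside genes.

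The variation was shared between members. For each pair of members, log2 CPM centred on the group means were correlated over 65 cortex or 63 hippocampus libraries, which makes 45 pairs per tissue. In the cortex Pearson's r ranged from 0.34 to 0.88 with a median of 0.64, and in the hippocampus from -0.17 to 0.82 with a median of 0.47. Each was tested by two-sided permutation within groups, and p-values are given unadjusted. The points share their library and its scaling. Arc and Nr4a1 were closest in the cortex (r = 0.88, rho = 0.88, permutation p = 1e-05, the smallest that 100000 permutations can give), and Junb and Egr4 in the hippocampus (r = 0.82, rho = 0.82, permutation p = 1e-05). Npas4 stood away from Egr4 in both tissues, with r = 0.34 in the cortex (rho = 0.37, permutation p = 0.00714) and r = -0.17 in the hippocampus (rho = -0.2, permutation p = 0.19). In the hippocampus Junb went with Egr4 but not with Npas4 (r = -0.07) or Nr4a1 (r = 0.12), while Npas4 went with Nr4a1 (r = 0.77). Without the 2 libraries farthest from the median the median r was 0.64 and 0.44, and within series B alone 0.73 and 0.49. It was 0.66 and 0.45 without mouse 9674. The part of the share of reads outside genes in these correlations was not tested.

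**Figure D4:**
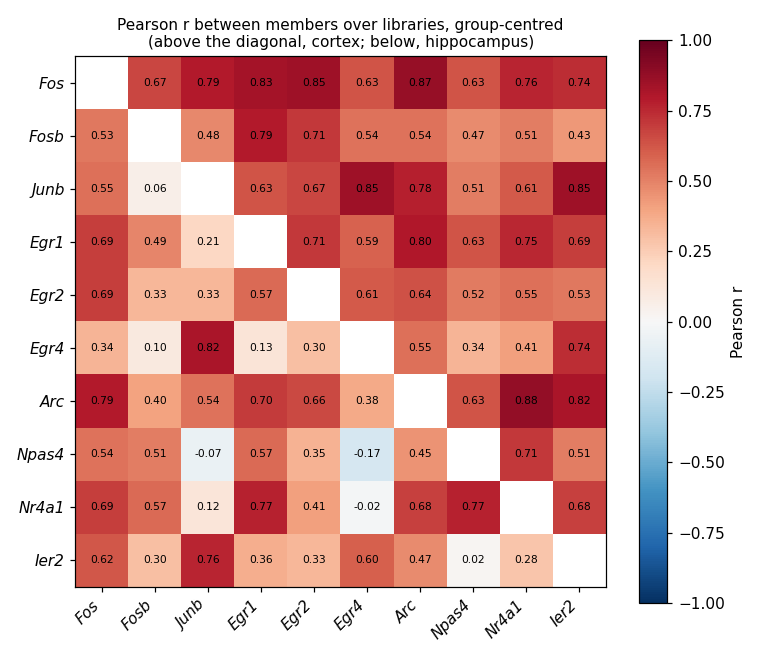
Pearson's r between the members over libraries (color and numbers), with log2 CPM centred on group means, for the cortex (above the diagonal, 65 libraries) and the hippocampus (below it, 63 libraries). All cortex values are positive, while in the hippocampus Junb, Egr4 and Ier2 have r of -0.07, -0.17 and 0.02 with Npas4.

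Outside the members, the genes whose pattern was most like the mean of the members were named by Pearson's r alone. In the cortex Dusp1 came first (r = 0.89 over 65 libraries), a phosphatase that switches off MAPK, followed by Dusp6 (0.86), Trib1 (0.85), Cyr61 (0.74), Btg2 (0.72), Spry2 (0.7), Midn (0.69) and Csrnp1 (0.67). In the hippocampus it was again Dusp1 (r = 0.8 over 63 libraries), then 1700016P03Rik (0.73), Csrnp1 (0.64), Midn (0.62), Cyr61 (0.61), Gpr3 (0.58), Mex3d (0.55) and Zfp703 (0.55). Series B alone does not hold mouse 9674, but its libraries were among those the genes were named from, so it is no separate check. There r of these genes was between 0.68 (Csrnp1) and 0.89 (Dusp1) in the cortex and between 0.52 (Gpr3) and 0.81 (Dusp1) in the hippocampus. The median over 15074 genes was 0.02 in the cortex and 0 in the hippocampus.

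A mouse with a high level in one tissue tended to have a high level in the other. Over 63 mice with both libraries, the group-centred log2 CPM of the cortex and the hippocampus were correlated for each of the 10 members. For Fos r was 0.75 (rho = 0.72), for Junb 0.72 (rho = 0.71), for Npas4 0.7 (rho = 0.65), for Arc 0.68 (rho = 0.66) and for Nr4a1 0.62 (rho = 0.6), each with a permutation p = 1e-05 for r and for rho, and 3.7e-05 for r when adjusted over 15074 genes. Egr2 (r = 0.6, rho = 0.6, permutation p = 2e-05), Egr4 (r = 0.49, rho = 0.54, permutation p = 4e-05) and Ier2 (r = 0.48, rho = 0.48, permutation p = 0.00026) followed. The exceptions were Egr1 (r = 0.22, rho = 0.33, permutation p = 0.137 for r and 0.0122 for rho) and Fosb (r = 0.17, rho = 0.21, permutation p = 0.267 for r). Without mouse 9674 these 2 had r = 0.4 (permutation p = 0.00098) and r = 0.29 (permutation p = 0.043). Adjusted over all genes, 8 of the 10 members passed, where 58.5% of 15074 genes did, and the median r was 0.61 for the members and 0.37 for all genes. Such a correlation was common among genes. Without the 2 mice farthest from the median r stayed between 0.42 (Ier2) and 0.71 (Fos) for the 8 members, and within series B alone Fos had r = 0.83 and Npas4 0.79. Libraries of series B differed in their share of reads outside genes. In the hippocampus of AA + RSD + minocycline mice of series B the share was 4.22% to 5.26% or 7.82% to 9.94%. Npas4 minus the group mean was -1.869 to -0.536 in the former and -0.384 to 1.235 in the latter. Fos overlapped between them. The part of this share in the correlations was not tested.

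**Figure D5:**
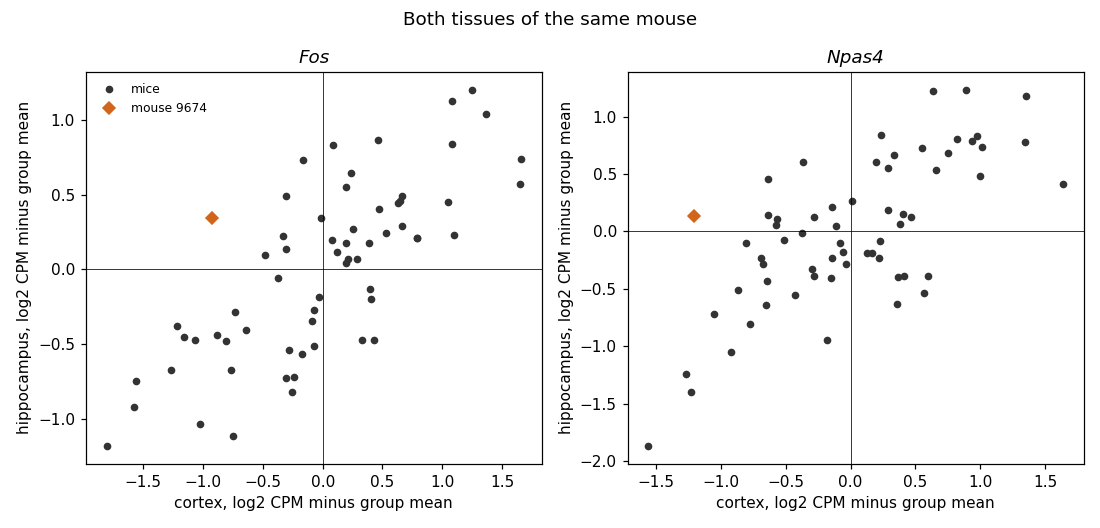
Log2 CPM minus the group mean in the cortex (x axis) and the hippocampus (y axis) of the same mouse, for Fos (left, r = 0.75) and Npas4 (right, r = 0.7), over 63 mice. Mouse 9674, whose libraries go against their tissue labels, is marked. The points rise together for both genes.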

How the data were processed

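The authors prepared directional libraries from polyadenylated RNA with single-end reads. STAR served for alignment (GRCm39) and for counting over GENCODE genes, and the deposited tables, 1 per tissue, hold raw read counts without normalization. The versions and the strand setting are not given in the sources used here. From these counts, 134 libraries with a known group were taken. Not used were 1 library whose labels name different tissues and 3 columns without an assigned library, and 4 libraries that are identical in pairs were left out, leaving 130. Summary lines of the tables, which name no gene, were left out of library sizes; the median share of reads outside genes was 8.25% for cortex and 7.59% for hippocampus libraries.

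The analysis used edgeR 4.0.16 under R 4.3.3: filterByExpr by group (minimum count 10, minimum total count 15), TMM scaling and the quasi-likelihood test, with Benjamini-Hochberg adjusted p under 0.05 over all genes. Comparisons within a genotype used 1 model of all its groups per tissue, and those across genotypes 1 model of all groups. For levels, CPM were scaled by TMM over all libraries, with a prior count of 2 on the log2 scale. Correlations used log2 CPM centred on group means and 100000 permutations of mice within groups. Alternatives were RLE size factors, DESeq2 1.42.0, no filter, fits of only the groups compared, further terms, single number series and left-out mice. The number series A alone for genotype, and the adjustment of correlations over all genes, were added after seeing the data. edgeR, DESeq2 and the permutation test were tested on simulated data.

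Libraries of both tissues carry the same mouse numbers, and those with the same number were taken to come from the same mouse. In control mice their deviations from the tissue means correlated over genes with r from 0.286 to 0.801. Libraries of different mice were not compared in this way, so these values do not test the pairing.

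All members were tested in every comparison, and those the results turn on are given by value. Of the further lists up to 3 called genes per comparison are named, those of smallest adjusted p. A gene that this rule names is not reported here. Genes most like the members were the 8 of highest r per tissue. The members and lists were chosen with earlier results of these data known. Each library is a mouse, and the tests judge a difference against the spread between mice, taken as independent. RSD was given by the cage, with several mice to a cage. The labels name no cage, so mice that shared a cage could not be accounted for.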

Additional observations from a re-analysis of the deposited data

Results flagged for a closer look

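In the cortex of SS mice the Fosb level of mouse 9903 lay far from the others: it had 32 CPM, while the next highest of the 8 mice had 19.6 CPM and the lowest 10.5 CPM. This was the 1 such value among 60 sets of 4 to 10 libraries looked at (10 members, 3 groups, both tissues), and chance alone gives about 1 in 20.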

How the results depend on the processing

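No call changed direction under the alternatives, although estimates of members that were not called did, such as Egr1 in AA + RSD against AA mice in the hippocampus without mouse 9674. Of the alternatives to the counts of called members and the between-tissue correlations, 339 were alike, 14 stronger and 11 weaker. A correlation was alike if it stayed on its side of the threshold. A count was alike if it changed little, which includes 1 more member with the mouse as a block. For SS + RSD against SS mice in the cortex 1 member (Nr4a1) was called with RLE size factors, with DESeq2 and in a fit of only the groups compared, and 0 to 1 when a mouse was left out. For SS + RSD + minocycline against SS + RSD mice the cortex count was 0 with the number series or the share of reads outside genes as a term. In the hippocampus it was 2 with DESeq2, 0 without a filter on low counts, with the number series or with the share outside genes as a term, and 0 to 1 when a mouse was left out. DESeq2 called 1 member for SS + RSD + minocycline against SS, for AA + RSD + minocycline against AA + RSD and for AA + RSD + minocycline against AA mice in the cortex, the last also in a fit of only the groups compared (1). For SS + RSD + minocycline against SS + minocycline mice 2 were called within series B alone. Between number series in the hippocampus the count was 0 with the share outside genes as a term and 4 without mice 5844, 5853, 7078 and 9631. The correlation between tissues rose to r = 0.29 for Fosb and 0.4 for Egr1 without mouse 9674, and to 0.48 for Egr1 within series B. With the mouse as a block, since both tissues carry the same mouse numbers, 9 members were called lower in the hippocampus of AA and 10 in that of SS mice. No call was lost. The causes of these changes were not tested. Groups of 3 mice, and the number series, limit the comparisons with RSD.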
